A study of Mus musculus with 16 samples.

Results

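CD8+ T cells that carried transcripts of both Pdcd1, the gene of the inhibitory receptor PD-1, and Tcf7, the gene of the transcription factor TCF1, were examined in accepted mouse kidney allografts. A cell was taken when it had at least 1 UMI (unique molecular identifier, which tags 1 captured RNA molecule) of Pdcd1, at least 1 of Tcf7, at least 1 of Cd8a or Cd8b1, and none of Cd4. The cells were thus chosen by measured UMIs of these 5 genes, whose levels are given as description only. Tests on the gate itself were made only for shares of cells with Tcf7, between weeks and between Pdcd1+ and Pdcd1- cells. Of the 38673 cells in the CD8 matrices of accepted kidneys at 1 and 3 weeks, and of 72639 in the 9 CD8 matrices of the series, 1237 met this rule, 967 at 1 week and 270 at 3 weeks. They are called Pdcd1+Tcf7+ cells here and were set against the Pdcd1+Tcf7- CD8+ cells of the same libraries, 5666 at 1 week and 12725 at 3 weeks.

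Kidneys of DBA/2J mice had been placed into wild-type C57BL/6J (B6) recipients, a pairing in which grafts are accepted without immunosuppressive drugs. The study used male mice, and their age is not given in the sources used here. Digested grafts were sorted for viable CD45+ cells, and 3′ single-cell libraries were made on the 10x Genomics Chromium platform. The CD8 matrices hold the cells that the authors assigned to CD8+ T cells. Their barcodes carry 3 library tags at 1 week and 5 at 3 weeks, as many as the mice the study names. Each tag was taken as 1 mouse, and values are given in the order of libraries 1 to 3 or 1 to 5.

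In chronic infection and tumors, PD-1+ CD8+ T cells that keep TCF1 are known as stem-like or progenitor exhausted cells. They renew themselves, give rise to TCF1- PD-1+ effector-like and terminally exhausted cells, and often express SLAMF6 (Ly108), ID3 and chemokine receptors of lymphoid tissue. TCF1 is also made by naive and central memory CD8+ T cells, so Tcf7 alone does not mark a stem-like exhausted cell. Slamf6, which the rule did not use, was therefore taken as the check on the name. In mouse genome build GRCm38 (mm10), Pdcd1 lies at chr1:94038305-94052553 on the minus strand, Tcf7 at chr11:52252371-52283014 on the minus strand and Slamf6 at chr1:171917515-171953170 on the plus strand.

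The gate rested on few molecules. Of the Pdcd1+Tcf7+ cells, 595 (61.5%) at 1 week and 224 (83.0%) at 3 weeks held exactly 1 Tcf7 UMI, and 34.0% and 37.8% held 1 UMI of each gene. At most 11 Tcf7 UMIs were seen in a cell at 1 week and 5 at 3 weeks. The rule for Cd4 removed 66 further cells at 1 week and 9 at 3 weeks. Deeper cells pass such a gate more often, and the median total per cell was 3871 UMIs in Pdcd1+Tcf7+ against 3168 in Pdcd1+Tcf7- cells at 1 week, and 3174 against 2261 at 3 weeks. The 5% of cells with the most UMIs in each library held 15.6% of the Pdcd1+Tcf7+ cells at 1 week and 31.5% (85 cells) at 3 weeks, against 5.92% to 7.33% of Pdcd1+Tcf7- cells across the 8 libraries.

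Free RNA was read in cells that should lack the genes, in the rejecting kidney and naive spleen. It was not read in the accepted kidneys, where it may differ. In 6274 myeloid cells of the rejecting-kidney CD45+ matrix (median 2445 UMIs), 0.717% had a Pdcd1 UMI, 0.223% a Tcf7 UMI, and 0 had both. In 28781 B cells of naive spleen (median 2672 UMIs) the shares were 0.0278% and 0.702%, again with 0 cells holding both. Only 45 of these myeloid cells and 8 of these B cells had a Pdcd1 UMI. At such Tcf7 shares, 0 cells with both was likely from the counts alone. It therefore gives no background of Tcf7 in Pdcd1+ cells. In 837 myeloid cells of naive spleen (median 4629 UMIs) 0 had a Pdcd1 UMI and 3.70% a Tcf7 UMI, which is above the unthinned shares of Pdcd1+ cells with Tcf7 at 3 weeks given below. Pairs of the 8 kidney libraries shared 1 to 21 cell barcodes, at most 0.411% of a library. A UMI of another cell type's marker was present in 38.6% to 45.5% of Pdcd1+Tcf7+ cells and 42.0% to 46.5% of Pdcd1+Tcf7- cells at 1 week, and in 44.4% to 58.8% and 44.7% to 57.4% at 3 weeks. These markers include the NK cell genes Fcer1g and Tyrobp, so the shares do not measure foreign cells or free RNA. Settings below without such cells remove cells partly by Fcer1g, which itself differed between the classes (values below).

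The libraries labelled accepted kidney at 24 weeks stood apart from the earlier kidney libraries and lay close to naive spleen by these genes. In them 13 of their 1848 CD8+ cells (0.704%) had a Pdcd1 UMI and 74.5% to 79.6% had a Tcf7 UMI, against 0.180% and 74.5% to 84.6% in naive spleen. In the libraries labelled accepted spleen at 24 weeks, 59.8% of CD8+ cells had a Pdcd1 UMI and 9.81% to 12.8% a Tcf7 UMI. Neither set enters a comparison here.

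Pdcd1+Tcf7+ cells made up a far smaller share of the Pdcd1+ CD8+ cells at 3 weeks than at 1 week. As counted, they were 15.0%, 14.5% and 14.4% of Pdcd1+ CD8+ cells in the 1-week libraries and 3.22%, 1.80%, 1.89%, 2.41% and 1.52% in the 3-week libraries. Pooled, this is 967 of 6633 cells (14.6%, exact 95% binomial interval 13.7% to 15.5%) and 270 of 12995 (2.08%, 1.84% to 2.34%), where intervals cover counting error only. With each cell thinned to 1000 UMIs, the shares were 6.18%, 3.99% and 5.80% at 1 week and 0.663%, 0.925%, 0.470%, 0.639% and 0.749% at 3 weeks. The weeks did not overlap on either count, and the thinned share fell by 4.63 percentage points, from 5.32 ± 1.17% (SD, n = 3) to 0.689 ± 0.166% (n = 5; two-sided exact permutation test over libraries, p = 0.0179, the smallest that 3 against 5 libraries allow).

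Tcf7 became rarer in Pdcd1- CD8+ cells as well. After thinning, a Tcf7 UMI was present in 10.3%, 7.97% and 8.51% of Pdcd1- cells at 1 week and in 1.38%, 0.981%, 1.23%, 1.12% and 0.982% at 3 weeks. Within every library the share was lower in Pdcd1+ than in Pdcd1- cells, as the lines of the plot of Tcf7 shares show. The thinned 3-week shares of Pdcd1+ cells rest on only 6, 16, 8, 8 and 13 cells with Tcf7. In 3-week library 2 they were 16 of 1730 against 21 of 2140, nearly level. Pdcd1 and Tcf7 are the genes of the rule, so the tests here describe the gate only. The log2 odds ratio of Tcf7 in Pdcd1+ against Pdcd1- cells was -0.79, -1.03 and -0.59 at 1 week and -0.98, -0.08, -1.33, -0.75 and -0.37 at 3 weeks, with a mean of -0.74 over the 8 libraries (two-sided exact sign-flip permutation test, p = 0.00781, the smallest it can give; below 0 in 8 of 8 libraries). Its mean was -0.80 at 1 week and -0.70 at 3 weeks, a difference of 0.10 that the exact permutation test did not separate (p = 0.75). Without thinning, the odds ratio at 3 weeks lay above that at 1 week by 0.46 (exact permutation p = 0.0179), and that of 3-week library 4 was above 0 (0.10).

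**Figure D1:**
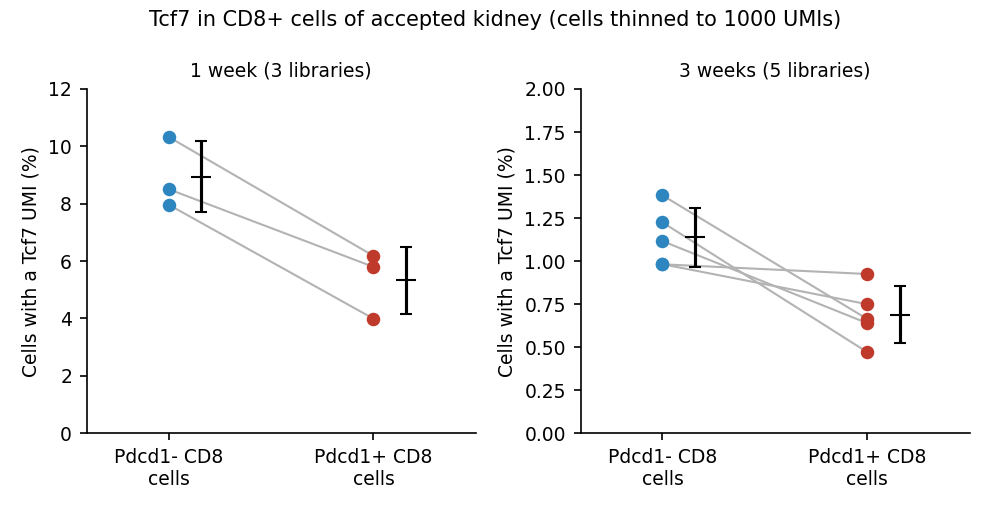
Percent of CD8+ cells with a Tcf7 UMI (linear axis, with a different range in each panel) in Pdcd1- and Pdcd1+ cells of the accepted kidney at 1 and 3 weeks, each cell thinned to 1000 UMIs. Each point is 1 library, lines join the cells of 1 library, and the bars give mean ± SD; the Pdcd1+ point lies below the Pdcd1- point in 8 of 8 libraries.

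Slamf6 was higher in Pdcd1+Tcf7+ than in Pdcd1+Tcf7- cells in every library. SLAMF6 is a surface receptor that marks progenitor rather than terminal exhausted T cells. Its level, in CPM (UMIs scaled to 1000000 in the summed cells of a class), was 131, 133 and 123 in the Pdcd1+Tcf7+ cells of the 1-week libraries and 45.2, 42.4 and 46.3 in their Pdcd1+Tcf7- cells, a 2.87-fold difference (log2 fold change 1.52 ± 0.11 SE, adjusted p = 8.94e-44). At 3 weeks it was 41.5, 23.1, 22.8, 21.1 and 11.5 against 8.15, 10.5, 6.11, 6.22 and 6.00, or 3.46-fold (log2 fold change 1.79 ± 0.35 SE, adjusted p = 7.74e-05). Both tests are edgeR's quasi-likelihood test on UMIs summed per library, with the library as a block and Benjamini-Hochberg adjustment over all genes tested, as are the adjusted p-values that follow. The 2 classes did not overlap at either week, and the level in both classes was lower at 3 weeks, where only 27 Slamf6 UMIs lay in Pdcd1+Tcf7+ cells. At 3 weeks the call was lost without library 1 (1.45, adjusted p = 0.097), without the 5% deepest cells (1.48, adjusted p = 0.34), and against Pdcd1+Tcf7- cells matched on total UMIs (0.74, adjusted p = 0.62). The matching took 1 Pdcd1+Tcf7- cell for each Pdcd1+Tcf7+ cell. Its comparison sums were therefore far smaller, and a call can be lost there through fewer UMIs alone. With the gate set on thinned cells, which left 51 Pdcd1+Tcf7+ cells at 3 weeks, the value was -5.08 (adjusted p = 0.99). These cells hold 1000 UMIs each, so a gene at this level leaves few or no UMIs and the value gives no direction.

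Counted as cells after thinning, a Slamf6 UMI was present in 14.2%, 12.1% and 13.0% of Pdcd1+Tcf7+ cells at 1 week and in 4.89%, 4.18% and 4.52% of Pdcd1+Tcf7- cells. At 3 weeks the shares were 1.59%, 1.96%, 1.85%, 1.79% and 4.35% against 0.581%, 0.969%, 0.536%, 0.529% and 0.403%. The share was higher in Pdcd1+Tcf7+ cells in 8 of 8 libraries, by 4.28 percentage points on average (two-sided exact sign-flip permutation test, p = 0.00781), which is 8.59 points at 1 week and 1.70 at 3 weeks. The 3-week shares are 1, 1, 1, 1 and 2 cells of 63, 51, 54, 56 and 46. Unthinned, Slamf6 was seen in 41.1 ± 6.76% (SD, n = 3) of Pdcd1+Tcf7+ cells at 1 week but in 7.16 ± 3.35% (n = 5) at 3 weeks. In Pdcd1+Tcf7- cells of the same libraries it was 13.6 ± 3.00% and 1.68 ± 0.601%. A Slamf6 UMI was also present in 8.03% of the myeloid cells above, 4.30% of those of naive spleen and 39.0% of the spleen B cells, so none of these cells gives a free-RNA level for Slamf6. Slamf6 thus separated Pdcd1+Tcf7+ from Pdcd1+Tcf7- cells at 1 week. At 3 weeks the difference lay at a low level and was not called against depth-matched cells. That comparison was too small to tell lost power from an effect of depth. Slamf6 did not stand higher in Pdcd1+Tcf7+ than in Pdcd1-Tcf7+ cells at 1 week, where it was called lower in the Pdcd1+Tcf7+ cells (values below). The name stem-like is therefore not carried further here and the cells are called by the rule.

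Cells with exactly 1 Tcf7 UMI lay between the others for some genes and not for others. Slamf6 stood at 44.9 CPM in the 5666 cells with 0 Tcf7 UMIs at 1 week, 107 in the 595 with 1 and 151 in the 372 with 2 or more. At 3 weeks it stood at 7.39, 21.2 and 45.0 CPM in 12725, 224 and 46 cells. Id3 followed the same order at 1 week, at 8.41, 33.4 and 45.3 CPM, and Gzmb the opposite one, at 947, 376 and 226. Il7r (61.5, 128 and 99.3 CPM), Xcl1 (555, 725 and 629) and Mki67 (356, 325 and 384) did not follow it. At 3 weeks Gzmb was 766, 493 and 545 CPM, lower with Tcf7 but with no further step between 1 and more UMIs. These values describe the gate and were not tested.

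Over both weeks together 671 of 10532 genes tested (6.37%) differed between Pdcd1+Tcf7+ and Pdcd1+Tcf7- cells, 336 higher (3.19%) and 335 lower (3.18%). Taken singly, 844 differed at 1 week (8.01%; 484 higher, 360 lower) and 208 at 3 weeks (1.97%; 118 higher, 90 lower). TMM scaling in place of plain totals moved the higher share of the called genes from 57.3% to 30.4% at 1 week and from 56.7% to 47.8% at 3 weeks, and with DESeq2 it was 36.8% and 89.4%. Under each of these scalings the median of all genes moved by less than 0.1 on the log2 scale. The 16 sums behind the test held 172856 to 2148849 UMIs for Pdcd1+Tcf7+ cells, the 3-week sums being the smaller, and 4362767 to 10861844 for Pdcd1+Tcf7- cells. Mitochondrially encoded transcripts were 3.78% to 4.86% of UMIs in Pdcd1+Tcf7+ against 3.41% to 4.29% in Pdcd1+Tcf7- cells at 1 week and 2.37% to 3.20% against 2.03% to 2.33% at 3 weeks. The higher genes include 5 of 13 mitochondrially encoded genes at 1 week and 10 at 3 weeks, with 0 lower. They also include 18 of 93 ribosomal protein genes at 1 week and 26 at 3 weeks, with 1 lower at each. Of all genes tested, 4.6% and 1.12% were higher. Their part in the results below, and that of depth per cell, was not tested except where values without the deepest cells or against matched cells are given. The matched sums are far smaller, with 4612 genes tested in place of 10532. Calls lost against them, here and below, can come from fewer UMIs as well as from depth.

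Genes of stem-like and memory T cells were higher in Pdcd1+Tcf7+ cells at both weeks. Of 9 listed genes tested besides the gate genes, 9 were higher at 1 week (median log2 fold change 1.55, against 0.02 over all genes) and 6 at 3 weeks (median 1.79, against -0.02), and 0 were lower at either week. Of all genes tested, 4.6% were higher at 1 week and 1.12% at 3 weeks. Id3, an inhibitor of E proteins found in memory and progenitor cells, was at 44.8, 35.8 and 38.2 CPM against 8.25, 7.95 and 8.75 at 1 week (log2 fold change 2.22 ± 0.19 SE, adjusted p = 6.67e-29). At 3 weeks it was at 28.7, 11.6, 17.1, 5.29 and 11.5 against 3.08, 2.71, 3.92, 2.31 and 2.65 (log2 fold change 2.45 ± 0.49 SE, adjusted p = 1.07e-04), from 17 UMIs in Pdcd1+Tcf7+ cells, and the call was lost without library 1 (1.95, adjusted p = 0.14). Pdcd1+Tcf7+ cells lay above Pdcd1+Tcf7- cells in each library at both weeks.

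Ccr7, the chemokine receptor that leads T cells into lymph nodes, was at 133, 100.2 and 84.7 CPM against 41.0, 16.5 and 22.3 at 1 week (log2 fold change 2.04 ± 0.13 SE, adjusted p = 6.63e-54). The 3-week values were 15.96, 23.1, 39.8, 31.7 and 86.2 against 1.69, 5.74, 3.45, 3.91 and 4.88 (log2 fold change 3.31 ± 0.35 SE, adjusted p = 1.00e-17). The classes did not overlap at either week. Lef1, which encodes a DNA-binding partner of TCF1 in naive and memory cells, was at 64.9, 49.4 and 70.3 against 28.2, 17.0 and 35.3 CPM at 1 week (log2 fold change 1.19 ± 0.14 SE, adjusted p = 6.42e-15) and 19.1, 46.3, 22.8, 31.7 and 63.2 against 7.84, 4.15, 4.86, 5.15 and 2.79 at 3 weeks (log2 fold change 2.74 ± 0.35 SE, adjusted p = 1.68e-12). Il7r, the receptor chain for the survival cytokine IL-7, was at 79.6, 95.9 and 145 against 55.2, 45.2 and 73.7 CPM at 1 week (log2 fold change 0.90 ± 0.10 SE, adjusted p = 1.08e-18) and 440.5, 324, 461, 269.6 and 287 against 293, 221, 179.5, 147 and 168 at 3 weeks (log2 fold change 0.81 ± 0.09 SE, adjusted p = 4.53e-15). Unlike Slamf6 and Ccr7, Il7r was higher at 3 weeks than at 1 week in both classes. Against cells matched on UMIs the 3-week calls of Ccr7 (1.02, adjusted p = 0.346) and Lef1 (1.52, adjusted p = 0.0706) were lost, and that of Lef1 also without the 5% deepest cells (2.12, adjusted p = 0.0640).

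Of the remaining listed genes, Bach2, a repressor of effector genes, was 4.65-fold higher at 1 week (log2 fold change 2.22 ± 0.24 SE, adjusted p = 9.67e-18), and its 3-week value was 1.23 ± 0.48 (adjusted p = 0.230). Myb, a regulator of self-renewal in progenitor cells, was higher at 1 week (1.57 ± 0.15, adjusted p = 1.94e-23) and at 3 weeks (3.75 ± 0.60, adjusted p = 1.08e-07), there from 14 UMIs with library 1 at 0. Bcl6 was called at 1 week (1.55 ± 0.37, adjusted p = 0.00106) but not at 3 weeks (0.29 ± 0.62). Xcl1, a chemokine that draws cross-presenting dendritic cells, was called at 1 week with a small change (0.24 ± 0.06, adjusted p = 0.00153), which was lost with TMM scaling and without library 2. Its level was 718, 921 and 503 CPM against 854, 571 and 424, lower in Pdcd1+Tcf7+ cells of library 1. Cxcr5, the receptor of follicle-homing cells, did not pass the filter on low counts. Without the 5% deepest cells, 4 of 9 listed genes kept a call at 3 weeks (median 0.86), and against cells matched on UMIs, 2 of 6 did (median 1.06); at 1 week the counts were 9 of 9 and 5 of 6.

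Genes of naive and recirculating T cells followed the same direction. Of 8 tested, 8 were higher at 1 week (median 0.75) and 5 at 3 weeks (median 1.21), with 0 lower. S1pr1, the receptor that lets T cells leave tissue, was at 52.1, 63.7 and 66.5 CPM against 36.4, 32.3 and 31.1 at 1 week (log2 fold change 0.91 ± 0.14 SE, adjusted p = 2.32e-09). At 3 weeks it was at 44.7, 69.4, 45.5, 58.2 and 28.7 against 5.08, 7.18, 6.11, 4.26 and 3.91 (log2 fold change 3.20 ± 0.30 SE, adjusted p = 8.11e-23). The level in Pdcd1+Tcf7+ cells overlapped between the weeks, while that in Pdcd1+Tcf7- cells was lower at 3 weeks. The 3-week call held without the 5% deepest cells and against cells matched on UMIs (1.92, adjusted p = 0.00282). The difference of the change between the weeks passed the test (log2 difference 2.29 ± 0.31, adjusted p = 2.20e-10) but not against matched cells (0.83, adjusted p = 0.539).

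Klf2, a transcription factor that keeps S1pr1 on in quiescent cells, was at 165, 201 and 151 against 107, 103 and 90.6 CPM at 1 week (log2 fold change 0.78 ± 0.08 SE, adjusted p = 9.48e-19). The 3-week values were 76.6, 162, 96.7, 164 and 167 against 67.4, 61.9, 48.7, 53.8 and 55.7 (log2 fold change 1.12 ± 0.15 SE, adjusted p = 8.52e-11). Each Pdcd1+Tcf7+ value lay above its own library's Pdcd1+Tcf7- value, and the 3-week call was lost against matched cells (0.51, adjusted p = 0.292) and without the 5% deepest cells (0.79, adjusted p = 0.0758). Dapl1, a marker of naive and memory CD8+ T cells, was 7.01-fold higher at 1 week (191, 153 and 105 against 33.0, 14.7 and 17.3 CPM, adjusted p = 6.42e-110). At 3 weeks only 10 Dapl1 UMIs lay in Pdcd1+Tcf7+ cells, with library 1 at 0, and its 3-week call (2.74 ± 0.63, adjusted p = 0.00181) turned to -4.95 without the 5% deepest cells and was lost without library 4. Over the list, 1 of 7 genes kept a call at 3 weeks without the deepest cells (median 0.0755) and 1 of 7 against cells matched on UMIs (median 0.509), compared with 7 of 7 and 6 of 7 at 1 week.

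**Figure D2:**
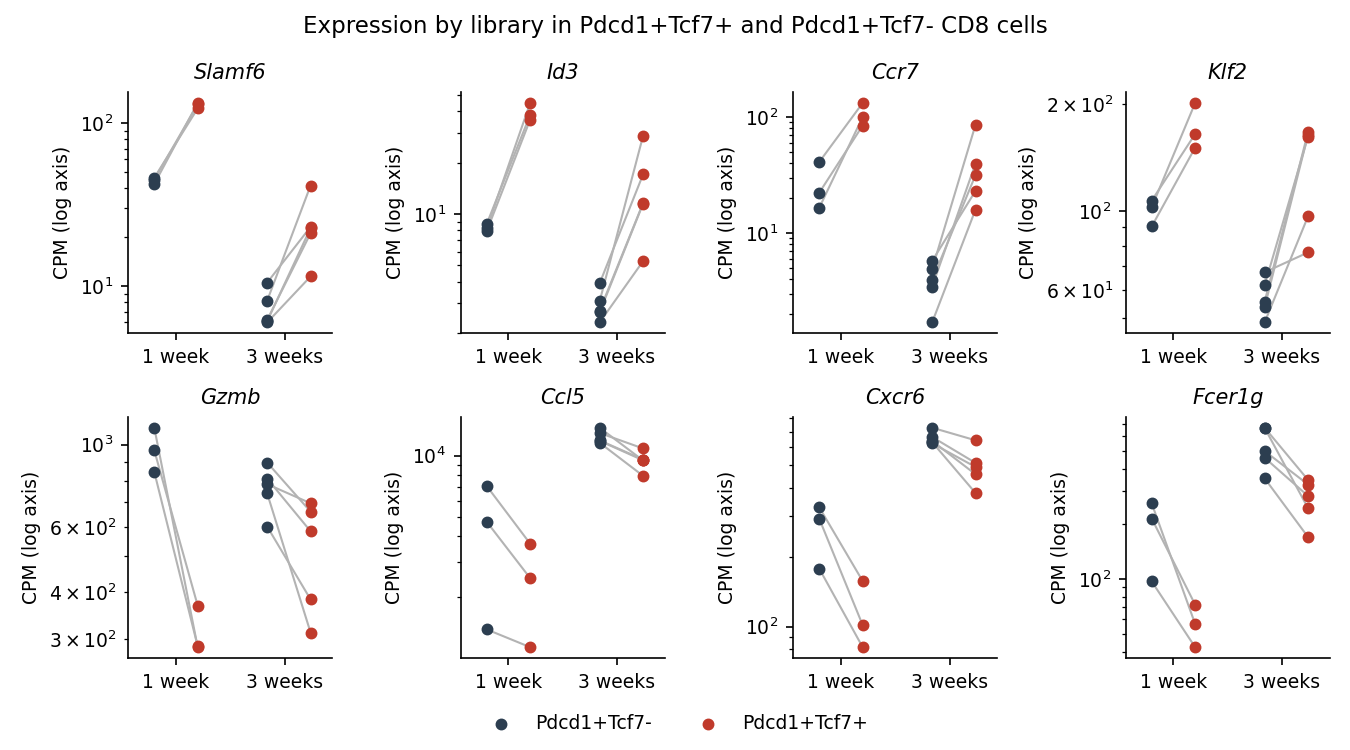
CPM (log axis) of 8 genes in the summed Pdcd1+Tcf7- and Pdcd1+Tcf7+ CD8+ cells of each library at 1 week (3 libraries) and 3 weeks (5 libraries); lines join the classes of 1 library. Slamf6, Id3, Ccr7 and Klf2 lie higher in Pdcd1+Tcf7+ cells in 8 of 8 libraries, and Ccl5, Gzmb, Cxcr6 and Fcer1g lie lower in 8 of 8.

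Cytotoxic and effector genes were lower in Pdcd1+Tcf7+ cells. Of 15 tested, 11 were lower at 1 week (median -0.51) and 6 at 3 weeks (median -0.37), and 0 were higher. Of all genes tested, 3.42% were lower at 1 week and 0.855% at 3 weeks. Gzmb, the protease granzyme B, was at 369, 285 and 287 CPM against 964, 1109.8 and 844 at 1 week (log2 fold change -1.63 ± 0.06 SE, adjusted p = 1.22e-144). At 3 weeks it was at 383, 584, 659.8, 312 and 695 against 602, 810.0, 894, 739 and 782 (log2 fold change -0.56 ± 0.07 SE, adjusted p = 1.68e-12). The 1-week classes were far apart, whereas the 3-week ranges overlapped although each library moved down. The deficit was smaller at 3 weeks (log2 difference 1.08 ± 0.10, adjusted p = 6.39e-24).

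Ccl5, an inflammatory chemokine stored in effector and memory CD8+ cells, was at 2488, 3680.0 and 1137 CPM against 4719, 7081 and 1391 at 1 week (log2 fold change -0.73 ± 0.05 SE, adjusted p = 2.49e-51), and the 1-week libraries differed from each other more than the classes did. The 3-week values were 9469.8, 10853, 9567, 9489.7 and 7955 against 13734, 12937, 11898, 11837 and 11578 (log2 fold change -0.39 ± 0.04 SE, adjusted p = 3.21e-23), with no overlap of the classes. Nkg7, a granule protein of killer cells, was 1308 to 1727 CPM against 1696 to 2536 at 1 week (-0.51 ± 0.05, adjusted p = 3.83e-22) and 2459 to 2855 against 3045 to 3817 at 3 weeks (-0.38 ± 0.04, adjusted p = 8.45e-15). Prf1, the pore protein perforin, was lower at 1 week (-0.77 ± 0.13, adjusted p = 3.58e-07) and at -0.17 ± 0.14 at 3 weeks (adjusted p = 0.756). Ifng was lower at 1 week by a smaller amount (-0.30 ± 0.08, adjusted p = 0.00610) and was 0.05 ± 0.11 at 3 weeks (adjusted p = 0.935). Gzmk was called at neither week (-0.33 ± 0.15 and -0.62 ± 0.30). Id2, which the study used as a marker of effector memory cells, was lower at 1 week (-0.51 ± 0.08, adjusted p = 4.62e-09) and not called at 3 weeks (-0.14 ± 0.07).

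Genes of tissue residency were also lower. Of 8 tested, 7 were lower at 1 week (median -0.86) and 4 at 3 weeks (median -0.31). Cxcr6, a chemokine receptor of tissue-resident T cells, was at 102, 158 and 81.4 CPM against 293, 329 and 178 at 1 week (log2 fold change -1.21 ± 0.08 SE, adjusted p = 1.44e-47) and at 642, 457, 512, 492 and 379 against 727, 637, 663, 623 and 630.1 at 3 weeks (log2 fold change -0.38 ± 0.07 SE, adjusted p = 3.13e-05). It lay lower in Pdcd1+Tcf7+ cells in each library. Itgae, the integrin chain CD103 that binds epithelium, was at 26.5, 17.2 and 14.4 against 66.7, 63.0 and 26.1 CPM at 1 week (log2 fold change -1.36 ± 0.16 SE, adjusted p = 3.40e-16) and 185, 156, 176, 100.5 and 195 against 222, 223, 235, 203 and 197 at 3 weeks (log2 fold change -0.40 ± 0.12 SE, adjusted p = 0.0342). Itga1, the collagen-binding chain CD49a, was -0.99 ± 0.14 at 1 week (adjusted p = 5.61e-11) and -0.47 ± 0.09 at 3 weeks (adjusted p = 6.00e-05). The 3-week Itgae call was lost when any of libraries 1 to 4 was left out. Without the library block, 0 of 15 cytotoxic and 0 of 8 residency genes were called at 3 weeks, with medians of -0.39 and -0.30, and at 1 week 6 and 5 were. Gzma, lower at 1 week in the test, lost its call without library 2 (-0.24, adjusted p = 0.16). Without cells that had a UMI of another cell type's marker, 3 cytotoxic and 1 residency genes kept a 3-week call.

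Inhibitory receptors leaned lower and exhaustion-linked transcription factors higher at 1 week, with few calls in either list. Of 7 inhibitory receptor genes besides Pdcd1, 1 was called higher and 4 lower over both weeks (median -0.28), 1 higher and 1 lower at 3 weeks (median -0.37), and 3 lower and 0 higher at 1 week (median -0.35), namely Havcr2 (-1.25 ± 0.21, adjusted p = 2.79e-07), Entpd1 (-1.49 ± 0.19, adjusted p = 3.12e-13) and Cd244a (-1.90 ± 0.20, adjusted p = 4.71e-18). Havcr2 (TIM-3) and Entpd1 (CD39) are markers of terminal exhaustion. Havcr2 was at 11.9, 5.01 and 14.0 CPM against 22.7, 26.7 and 26.1 at 1 week and at 12.8, 11.6, 39.8, 10.6 and 17.2 against 30.1, 34.9, 33.4, 22.7 and 30.7 at 3 weeks, where library 3 went the other way and the test was not passed (-0.78 ± 0.33, adjusted p = 0.303). At 3 weeks Cd244a was lower (-0.54 ± 0.14, adjusted p = 0.00994; lost when library 1, 4 or 5 was left out) and Cd160 higher (0.59 ± 0.14, adjusted p = 0.00393), and the Cd160 call was lost without library 1 (0.37, adjusted p = 0.47). Lag3 was called at neither week (0.27 ± 0.10, adjusted p = 0.0579, and -0.30 ± 0.13, adjusted p = 0.335), nor was Tigit (-0.35 ± 0.25 and -0.21 ± 0.37).

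Tox, the transcription factor that sustains the exhausted state, was at 241, 202 and 161 CPM in Pdcd1+Tcf7+ against 207, 181 and 163 in Pdcd1+Tcf7- cells at 1 week (0.11 ± 0.08, adjusted p = 0.495). At 3 weeks it was at 402, 307, 256, 296 and 241 against 447, 332, 333, 345 and 349 (-0.25 ± 0.09, adjusted p = 0.144). Both classes thus held Tox transcripts, with a higher level at 3 weeks in each. Of the 9 genes of this list, 8 had a log2 fold change above 0 at 1 week (median 0.29), of which Nfatc1, Eomes and Ikzf2 were called higher, with 0 calls by DESeq2. At 3 weeks 5 lay above 0 (median 0.13) and Nr4a2 was called lower. Eomes, a T-box factor of memory and exhausted cells, was at 16.5, 8.59 and 10.2 against 4.36, 4.05 and 5.89 CPM at 1 week (log2 fold change 1.17 ± 0.28 SE, adjusted p = 0.00108), a call lost without library 1 (0.89, adjusted p = 0.12), and its 3-week value was 0.73 ± 0.35 (adjusted p = 0.418). Pdcd1 itself, which the rule used, stood at 367, 318 and 444 CPM in Pdcd1+Tcf7+ and 544, 439.7 and 512 in Pdcd1+Tcf7- cells at 1 week, and at 472, 717, 546, 539 and 655 and 619.5, 926, 823, 773 and 848 at 3 weeks, given without a test.

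Fgl2 and Il2rb, which the study used as markers of regulatory-like CD8+ cells, were lower. Fgl2, a secreted inhibitor of T cell responses, was at 41.2, 35.8 and 30.2 CPM in Pdcd1+Tcf7+ against 103, 110.5 and 58.4 in Pdcd1+Tcf7- cells at 1 week (log2 fold change -1.29 ± 0.12 SE, adjusted p = 9.46e-25). The 3-week values were 227, 336, 319, 322 and 258 against 337, 392, 395, 362 and 429.7 (log2 fold change -0.40 ± 0.09 SE, adjusted p = 0.00126). The classes did not overlap at either week, although at 3 weeks the highest Pdcd1+Tcf7+ and the lowest Pdcd1+Tcf7- library were nearly level, and the 3-week level exceeded the 1-week level in both. The 3-week call was lost without library 5 (-0.33, adjusted p = 0.0583) and against cells matched on UMIs (-0.23, adjusted p = 0.515). Il2rb, the receptor chain shared by IL-2 and IL-15, was at 245, 187 and 273 against 363, 341 and 344 CPM at 1 week (log2 fold change -0.56 ± 0.07 SE, adjusted p = 5.21e-14) and 488, 474, 546, 571 and 695 against 665, 707, 825, 753 and 808 at 3 weeks (log2 fold change -0.44 ± 0.07 SE, adjusted p = 1.73e-07). Tnfrsf4 (OX40) was higher at 1 week (0.80 ± 0.10, adjusted p = 3.15e-14). The study had examined Fgl2 and Il2rb in these same libraries. Of the list of 6 genes that holds these 3, the others (Il10, Tnfrsf18 and Icos) were called at neither week.

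Further genes gave single calls. The costimulatory receptor Cd28 was higher at 1 week (0.36 ± 0.08, adjusted p = 9.04e-05), Cd2 and Cd226 were lower, and Icos was called at neither week (0.11 ± 0.08 and 0.12 ± 0.12). Cxcr3, a receptor of effector T cells, was called at neither week (0.24 ± 0.11 and 0.09 ± 0.17). Cxcr4 was higher at 3 weeks (1.64 ± 0.33, adjusted p = 1.65e-04), a call lost without library 1 (1.41, adjusted p = 0.055). Among interferon-stimulated genes, Ifi27l2a was higher and Isg15 lower at 1 week, and Ifi27l2a and Ly6a were higher at 3 weeks. Fcer1g, a signalling adaptor of NK and innate-like T cells, was at 56.7, 72.3 and 42.3 CPM against 258, 213 and 96.8 at 1 week (log2 fold change -1.63 ± 0.10 SE, adjusted p = 1.70e-58) and 169, 283, 347, 243 and 327 against 354, 459, 669, 668 and 499 at 3 weeks (log2 fold change -0.96 ± 0.09 SE, adjusted p = 3.21e-23).

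Markers of other cells were read beside these results. The summed level of 5 NK cell markers was 74.0 to 92.4 CPM in Pdcd1+Tcf7+ against 121 to 282 in Pdcd1+Tcf7- cells at 1 week, and 182 to 375 against 379 to 728 at 3 weeks, with Ncr1 and Klra8 at 0 in Pdcd1+Tcf7+ cells at 3 weeks. Of the 3 of these genes tested, Fcer1g was lower at both weeks, Tyrobp was lower at 3 weeks, and Klrb1c was called at neither week. At 1 week Tyrobp was not called (0.18) and the median of the 3 was 0.18, so the lower sum there was mostly Fcer1g. The part of these genes in the other differences was not tested. For 5 B cell markers the levels were 7.88 to 12.6 against 8.42 to 11.9 CPM at 1 week and 0 to 40.5 against 16.2 to 37.5 at 3 weeks. For 8 myeloid markers they were 45.8 to 91.7 against 44.4 to 101 and 35.1 to 109.9 against 58.0 to 172. Of 13 tested genes of the B cell, myeloid, CD4+ and gamma-delta T cell lists, edgeR called 0 at either single week, with 3 and 4 at an unadjusted p under 0.05. Of all genes tested, 8.01% and 1.97% were called at these weeks, so a list of this size says little. Over both weeks edgeR called 1 of the 13, Tcrg-C1, lower. DESeq2 called 0, and TMM scaling called 1 myeloid gene, lower, at 1 week. Of the kidney genes Gpx3, higher at 1 week, was called. These lists do not cover every gene of other cells. Among the most lowered genes outside them were Jchain at 1 week (-4.66 ± 0.74) and 3 weeks (-1.90 ± 0.54) and H2-Eb1 at 3 weeks (-1.16 ± 0.29). Over both weeks Clec10a (-5.84 ± 1.65) and Cd93 (-4.71 ± 1.22) were among them. The part of other cells' transcripts in these values was not tested.

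The genes with the largest changes that moved alike in every library of a contrast repeated these groups and added others. At 1 week the highest were Ccr6, Nsg2, Igfbp4, Pde10a, Dapl1, Tnfrsf26, Gucy1a1, Cldn10, Treml2 and Cnn3. Among them Nsg2 (log2 fold change 2.95 ± 0.31 SE, adjusted p = 6.14e-19) and Dapl1 rested on 81 and 649 UMIs in Pdcd1+Tcf7+ cells, and the others on 13 to 30. The lowest at 1 week were Hsf4, Jchain, Ccdc136, Adora3, Gcsam, P2ry14, Gpr34, Gzmc, Cdh1 and Ly6g5b, each with 0 to 11 UMIs in Pdcd1+Tcf7+ cells, so that their fold changes are imprecise. Gzmc, a further granzyme, had 11 UMIs there against 236 in Pdcd1+Tcf7- cells (-2.18 ± 0.38, adjusted p = 6.17e-07), and Cdh1 (E-cadherin) 8 against 161 (-2.15 ± 0.43, adjusted p = 2.35e-05).

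At 3 weeks the highest of them were Klra6, Ccr7, S1pr1, Klf3, Lef1, Treml2, Lrig1, Icam2 and Cmah. Klf3, a factor that works in the same circuit as KLF2, was at 19.1, 23.1, 39.8, 47.6 and 40.2 CPM against 2.92, 3.99, 4.07, 3.55 and 3.91 (log2 fold change 3.16 ± 0.38 SE, adjusted p = 4.39e-14), and at 1 week at 24.7, 17.2 and 20.5 against 13.5, 7.17 and 12.3 (log2 fold change 0.90 ± 0.21 SE, adjusted p = 8.34e-04). Each library moved up at both weeks. Ly6c2, a surface protein of memory and effector CD8+ T cells, did not differ past the test at 1 week (0.03 ± 0.07, adjusted p = 0.882) but was 3.77-fold higher at 3 weeks, at 156, 127, 125, 238 and 172 against 48.8, 44.4, 35.4, 41.0 and 44.9 CPM (log2 fold change 1.91 ± 0.14 SE, adjusted p = 3.69e-36). The lowest at 3 weeks included Pdcd1lg2 (2 UMIs in Pdcd1+Tcf7+ cells against 508), Exoc7, Jchain, Gfi1, Tyrobp, Ndufaf2, Itih5 and H2-Eb1, all with 29 or fewer UMIs in Pdcd1+Tcf7+ cells.

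The difference between the classes changed with time for 104 genes (0.987% of those tested), 65 (0.617%) shifting up and 39 (0.37%) down at 3 weeks. Of the 9 stem-like genes 3 shifted up (Ccr7, Lef1 and Myb) and 0 down, and of the 8 naive and recirculating genes 1 up (S1pr1) and 1 down (Actn1, -0.97). The excess grew for Ccr7 by 1.27 ± 0.33 (adjusted p = 0.0158), Lef1 by 1.54 ± 0.34 (adjusted p = 0.00170), S1pr1 and Klf3 by 2.26 ± 0.40 (adjusted p = 1.09e-05), and Ly6c2 by 1.88 ± 0.16 (adjusted p = 1.51e-28), on the log2 scale. Against cells matched on UMIs the Ccr7 difference turned to -1.38, and those of Lef1 (0.34, adjusted p = 0.865), S1pr1 and Klf3 (1.16, adjusted p = 0.505) were lost. The Ccr7 call was also lost without 1-week library 1 or 3, or 3-week library 3 or 5, and the Lef1 call without 3-week library 5 (1.11, adjusted p = 0.231). Of the 15 cytotoxic and 8 residency genes, 3 (Gzmb, Ccl3 and Ccl5) and 4 (Cxcr6, Itgae, Rgs1 and Rgs2) shifted up and 0 down. The deficit shrank for Gzmb, Cxcr6 (0.83 ± 0.11, adjusted p = 3.70e-10), Itgae (0.96 ± 0.21, adjusted p = 8.30e-04) and Fgl2 (0.89 ± 0.16, adjusted p = 1.21e-05), of which Itgae was lost without 1-week library 2. Without the library block the differences of S1pr1, Klf3 and Ly6c2 kept their calls, and those of Gzmb (1.08, adjusted p = 0.103), Cxcr6 (0.86, adjusted p = 0.372), Fgl2 (0.95, adjusted p = 0.320), Ccr7 and Lef1 lost them. Slamf6 (0.27 ± 0.32, adjusted p = 0.908), Id3 (0.23 ± 0.44, adjusted p = 0.951) and Il7r (-0.10 ± 0.13, adjusted p = 0.925) gave no difference past the test. In the plot of both weeks' fold changes, Ccr7, Lef1, S1pr1 and Myb lie above the diagonal and Gzmb lies above it among the lowered genes.

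**Figure D3:**
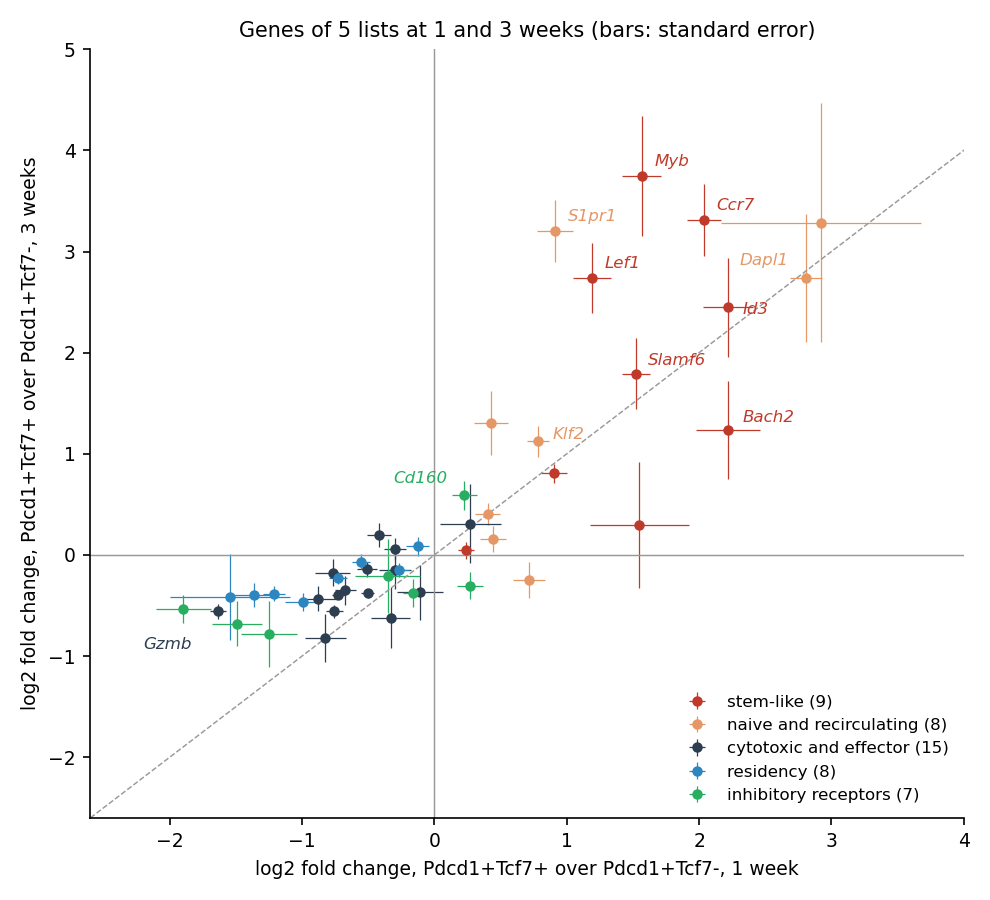
log2 fold change of Pdcd1+Tcf7+ over Pdcd1+Tcf7- cells at 1 week (horizontal) and 3 weeks (vertical) for the tested genes of 5 lists, with standard errors as bars and the line of equal change dashed. The stem-like genes lie at or above 0 at both weeks, with medians of 1.55 and 1.79, and the cytotoxic genes are mostly below 0, with medians of -0.51 and -0.37.

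Circulation and residency transcripts were counted in the same Pdcd1+Tcf7+ cells. At 1 week, 327 of 967 cells (33.8%, exact 95% interval 30.8% to 36.9%) had a UMI of Ccr7, Lef1 or S1pr1 and none of Cxcr6, Itga1 or Itgae, 177 (18.3%) had the reverse, 162 (16.8%) had both and 301 (31.1%) neither. At 3 weeks only 5 of 270 (1.85%, 0.604% to 4.27%) had circulation genes alone, whereas 185 (68.5%) had residency genes alone and 53 (19.6%) both. Slamf6 and Gzmb occurred in the same cell in 114 cells (11.8%) at 1 week, and at 3 weeks 15 cells held both and 5 held Slamf6 without Gzmb. These counts are unthinned, so deeper cells hold more combinations, and at such detection rates they do not tell 1 population from several.

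After thinning, a UMI of Ccr7, Lef1 or S1pr1 was found in 20.7 ± 3.20% of Pdcd1+Tcf7+ and 8.29 ± 1.73% of Pdcd1+Tcf7- cells at 1 week (SD, n = 3) and in 8.34 ± 2.80% and 1.15 ± 0.223% at 3 weeks (n = 5). A UMI of Cxcr6, Itga1 or Itgae was found in 13.7 ± 3.74% and 30.9 ± 8.58% at 1 week, but in 61.9 ± 5.98% and 67.4 ± 2.04% at 3 weeks. Gzmb was found in 15.1 ± 0.577% and 39.5 ± 3.11% at 1 week and in 28.0 ± 8.63% and 32.9 ± 2.66% at 3 weeks. By these shares the Pdcd1+Tcf7+ cells at 3 weeks lay close to the other Pdcd1+ cells in residency and Gzmb and differed in the circulation genes.

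Cell cycle genes differed between the classes only under some settings. A UMI of Mki67 or Top2a, genes of dividing cells, was found after thinning in 30.9%, 19.3% and 36.8% of Pdcd1+Tcf7+ and 21.7%, 16.4% and 37.8% of Pdcd1+Tcf7- cells at 1 week. At 3 weeks the means were 4.46 ± 4.56% and 6.13 ± 0.859% (SD, n = 5). With edgeR, 0 of 15 cell cycle genes were called at either week, with medians of 0.0013 and 0.020, and 4 and 3 had an unadjusted p under 0.05; DESeq2 called 0 at either week, and TMM scaling 3, lower, at 1 week. Against cells matched on UMIs 10 of 15 were lower at 1 week (median -0.28) and 0 at 3 weeks. Mki67 was at 378, 182 and 451 against 328, 215 and 449.6 CPM at 1 week (0.00 ± 0.07, adjusted p = 0.997), but it was lower in Pdcd1+Tcf7+ cells against cells matched on UMIs (-0.23).

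**Figure D4:**
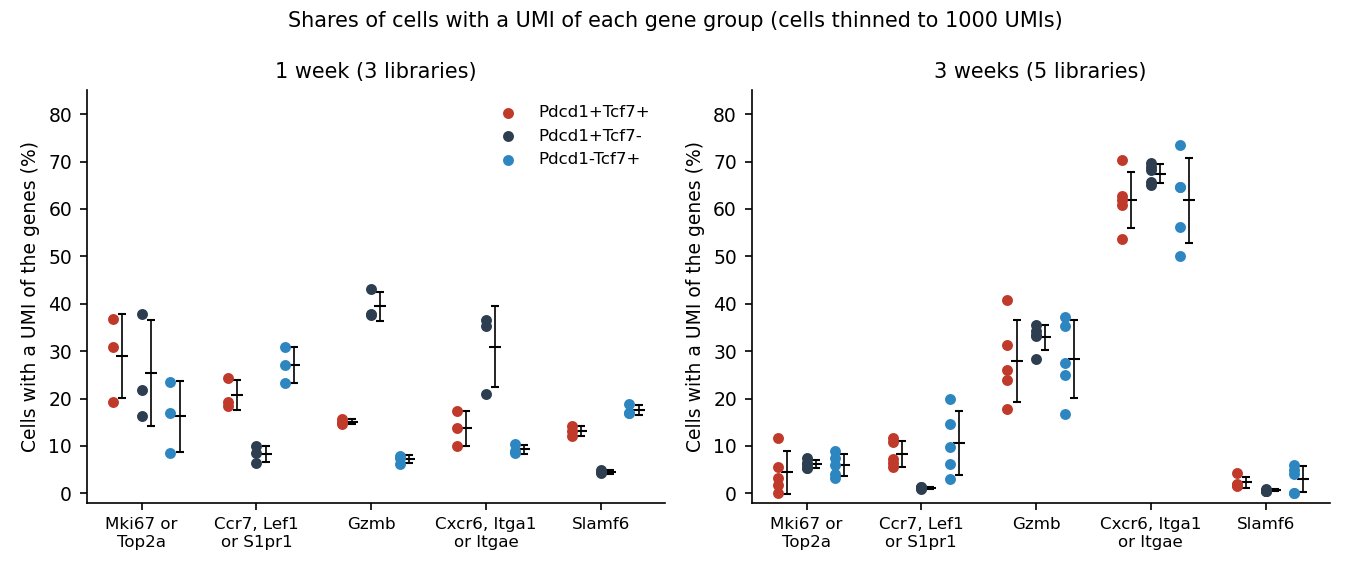
Percent of cells with a UMI of each gene group (linear axis) in Pdcd1+Tcf7+, Pdcd1+Tcf7- and Pdcd1-Tcf7+ CD8+ cells of the accepted kidney at 1 week (3 libraries) and 3 weeks (5 libraries), each cell thinned to 1000 UMIs. Points are libraries and bars give mean ± SD; the residency group was found in 13.7% of Pdcd1+Tcf7+ cells at 1 week and 61.9% at 3 weeks, and Slamf6 in 13.1% and 2.31%.

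Pdcd1-Tcf7+ cells of the same libraries, 1453 at 1 week and 205 at 3 weeks, were compared as an addition made after the other values were seen. Their median total was 2351 UMIs per cell at 1 week and 2467 at 3 weeks, against 3871 and 3174 in Pdcd1+Tcf7+ cells. For depth, only counts of called genes without the deepest cells are given, in the last section. Values against matched cells are not reported for this comparison. At 1 week 552 of 3502 genes differed (15.8%), 398 higher (11.4%) and 154 lower (4.4%) in Pdcd1+Tcf7+ cells. With TMM scaling 269 were higher and 216 lower, and with DESeq2 82 and 119, so the lean to higher genes depended on the scaling. Cell cycle genes were higher in Pdcd1+Tcf7+ cells for 14 of 14 (median 0.69, against 0.08 over all genes), with Mki67 at 378, 182 and 451 CPM against 203, 76.1 and 306 (0.82 ± 0.10, adjusted p = 2.85e-07). Without the cells that had a Mki67 or Top2a UMI, 137 genes were called, and without the library block 28. Naive and recirculating genes were lower for 6 of 7, as Klf2, at 165, 201 and 151 against 373, 411 and 344 CPM (-1.13 ± 0.09, adjusted p = 4.10e-11).

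Slamf6 was not particular to Pdcd1+ cells among those with Tcf7. At 1 week it was at 131, 133 and 123 CPM in Pdcd1+Tcf7+ and 201, 191 and 189 in Pdcd1-Tcf7+ cells (-0.59 ± 0.10, adjusted p = 7.49e-05), lower in the Pdcd1+ cells of each library, as were Id3 (-1.15 ± 0.15), Lef1 (-0.66 ± 0.15) and Il7r (-0.76 ± 0.12). Xcl1 was higher (0.99 ± 0.08, adjusted p = 1.04e-11), and so were Tox (0.29 ± 0.10, adjusted p = 0.0481) and the T cell receptor-induced Nr4a1, Nr4a2 and Nr4a3 among 7 exhaustion-linked factors. Of 11 cytotoxic genes Gzmb, Ifng, Ccl3, Ccl4 and Tbx21 were higher and Ccl5 lower. By mean level at 1 week, Gzmb, Klf2 and Slamf6 of the Pdcd1+Tcf7+ cells lay between those of Pdcd1-Tcf7+ and Pdcd1+Tcf7- cells. Other genes did not, since Xcl1 was called higher, and Ccl5 lower, than in either other class. By median summed level, the naive and residency lists lay between. The summed stem-like and cell cycle lists stood highest in Pdcd1+Tcf7+ cells and the summed cytotoxic list lowest. For each, the library range overlapped with that of the nearest other class, and such sums are led by the most abundant genes. By gene, against Pdcd1-Tcf7+ cells, 1 of 7 stem-like genes (Xcl1) was higher and 4 were lower (median -0.59). Of the 11 cytotoxic genes 5 were higher and 1 lower (median 0.47). Cell cycle genes were at 5680 CPM, against 3424 in Pdcd1-Tcf7+ and 4983 in Pdcd1+Tcf7- cells. At 3 weeks 9 genes were called (0.257%), with Uhrf2, Rgs2, Tnfaip3, Vps37b, Dennd4a, Sh2d2a and Nr4a2 higher (0.2%) and Itgb7 and Hspa1a lower (0.0571%), and 303 at an unadjusted p under 0.05.

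Between 1 and 3 weeks 2415 of 3968 genes tested (60.9%) differed within the Pdcd1+Tcf7+ cells, 1484 higher (37.4%) and 931 lower (23.5%) at 3 weeks. The median log2 fold change over all genes was 0.22. With TMM scaling 1198 were higher and 1189 lower, and with DESeq2 1061 and 1111, so the lean to higher genes depended on the scaling. Within the Pdcd1+Tcf7- cells 74% of 10858 differed (52.8% higher and 21.2% lower), with a median of 0.43 over all genes. The week cannot be told apart from the library preparation here, since each mouse was sampled once. Cell cycle genes were lower at 3 weeks for 14 of 14 (median -2.96), as Mki67, at 378, 182 and 451 CPM at 1 week and 19.1, 17.4, 5.69, 15.9 and 11.5 at 3 weeks (log2 fold change -4.52 ± 0.34 SE, adjusted p = 2.04e-11). Residency genes were higher for 7 of 7 (median 1.90), as Itga1 (3.42 ± 0.19, adjusted p = 2.24e-14), Itgae (3.14 ± 0.24, adjusted p = 2.00e-11) and Cxcr6 (2.16 ± 0.19, adjusted p = 1.82e-10). Cytotoxic genes were higher for 9 of 11 (median 0.96), including Gzmb (0.73 ± 0.18, adjusted p = 9.22e-04) and Prf1 (1.88 ± 0.22, adjusted p = 4.38e-08). Fgl2 was 8.20-fold higher at 3 weeks (adjusted p = 1.22e-13). These shifts were not particular to the Pdcd1+Tcf7+ cells. In Pdcd1+Tcf7- cells 15 of 15 cell cycle genes were lower (median -2.95) and 8 of 8 residency genes higher (median 1.34). There 10 of 15 cytotoxic genes were higher and 1, Gzmb, was lower. Their median was 0.51, against 0.43 over all genes, of which 52.8% were higher, so the list stood little above all genes. Fgl2 was higher too.

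Of 6 stem-like genes tested over time, Slamf6, Lef1, Ccr7, Xcl1 and Myb were lower at 3 weeks and Il7r higher. The same 6 genes were called in the same directions in Pdcd1+Tcf7- cells. In the Pdcd1+Tcf7+ cells the changes were as follows. Slamf6 changed by -2.29 ± 0.25 on the log2 scale (adjusted p = 1.25e-08), Ccr7 by -1.51 ± 0.29 (adjusted p = 8.35e-05) and Il7r by 1.72 ± 0.19 (adjusted p = 1.62e-08). Klf2 and S1pr1 did not pass the test (-0.42 ± 0.19, adjusted p = 0.0614, and -0.33 ± 0.24, adjusted p = 0.239).

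The same rule was applied to the other CD8 matrices as a description. In the rejecting kidney at 1 week, which the study made by placing B6 kidneys into DBA/2J recipients, 54 of 1076 Pdcd1+ CD8+ cells met it (5.02%, exact 95% interval 3.79% to 6.50%), 4.02% and 6.06% in its 2 libraries. In accepted-recipient spleen 50 of 109 Pdcd1+ cells met it at 1 week and 6 of 14 at 3 weeks, in rejecting-recipient spleen 3 of 9, and in naive spleen 7 of 8, where most CD8+ cells held Tcf7. In the libraries labelled accepted spleen at 24 weeks 282 of 2532 Pdcd1+ cells met it (11.1%, 9.94% to 12.4%). These groups differ in cell number and depth, and no test was made between them.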

How the data were processed

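Single-cell 3′ RNA libraries of sorted CD45+ graft cells were aligned and counted by the authors with Cell Ranger on mouse genome build mm10 (submitters' processing notes, version not given in the sources used here). The authors then removed cells on UMIs, genes and mitochondrial content and split off CD8+ T cells. The deposited values are raw UMI counts per gene and cell. No doublet step is named in the sources used here and none was run. The accepted-kidney matrices hold 19497 genes. The members, gene lists and comparisons were chosen with earlier results of these data known.

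UMIs of each class were summed per library and tested with edgeR 4.0.16 (R 4.3.3; quasi-likelihood test, plain totals, filterByExpr, library as a block, Benjamini-Hochberg threshold 0.05 over all genes tested). The fit pairs the 2 classes because they come from 1 library. Comparisons over time had no block. CPM scales a gene's UMIs to 1000000 UMIs of its sum. Shares were compared after thinning cells to 1000 UMIs, which left out 0 cells, by exact permutation over libraries, and odds ratios used an added count of 0.5 (python 3.11.15, numpy 2.4.6, scipy 1.17.1). The gate genes Pdcd1, Tcf7, Cd8a, Cd8b1 and Cd4 had no test of expression, and entered only the tests of shares and odds ratios. In the class comparisons the block removes differences in level between libraries. Their p-values set the class difference within libraries against an estimate of spread that borrows heavily from all genes. A single gene's own variation among the 3 or 5 libraries entered them little. These p-values do not measure the spread of levels between mice. P-values over time rest on the spread between libraries, and permutation tests on values per library.

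The genes named are a fixed set of T cell genes, the called members of the lists, and per comparison the 10 most raised and 10 most lowered genes that were called and moved alike in every library, leaving out mitochondrial, ribosomal protein, receptor-segment and unnamed genes. Of these, 4 genes are not reported here. Alternatives were DESeq2 1.42.0, TMM factors, no low-count filter, UMI-matched comparison cells, at least 2 Tcf7 UMIs, thinned gates, cell subsets, no block and leaving out each library. On simulated counts of 10299 genes with 100 changed 2-fold and 100 changed 4-fold, the test recovered 83% and 99% at 1 week and 56% and 94% at 3 weeks, and called 7 and 6 of 10098 unchanged genes. The changed genes were drawn only from those above a floor on the mean expected count over the 16 sums. Recovery was not measured apart for genes with few UMIs in Pdcd1+Tcf7+ cells.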

Additional observations from a re-analysis of the deposited data

Results flagged for a closer look

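Dixon's rule for a sample far from the others was applied to 47 sets of 5 values, 1 from each 3-week library, and marked 4 of them, where chance marks about 1 in 20. The excess of the thinned Slamf6 share in Pdcd1+Tcf7+ over Pdcd1+Tcf7- cells was 3.945 percentage points in library 5, against a median of 1.256, and the thinned Slamf6 share itself was 4.348% there, against a median of 1.852%. The median total of Pdcd1+Tcf7+ cells was 3837 UMIs in library 1, against a median of 3021. Havcr2 was at 39.82 CPM in the Pdcd1+Tcf7+ cells of library 3, against a median of 12.77.

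The difference between Pdcd1+Tcf7+ and Pdcd1+Tcf7- cells itself differed between 3 weeks and 1 week for 36 named or listed genes, by edgeR's test of the difference with adjustment over all genes. On the log2 scale, the change was higher at 3 weeks for genes whose Pdcd1+Tcf7+ level had been the lower one at 1 week, Il10 by 2.78, Ifitm1 by 2.19, Cdh1 by 2.11, Cd244a by 1.36, Gzmb by 1.08, Itgae by 0.96, Fgl2 by 0.89, Cxcr6 by 0.83, Fcer1g by 0.66, Ccl3 by 0.62, Rgs1 by 0.50, Rgs2 by 0.49, Cd2 by 0.45 and Ccl5 by 0.33. It was also higher for genes that had been level or higher in Pdcd1+Tcf7+ cells at 1 week, S1pr1 by 2.29, Klf3 by 2.26, Gpr146 by 2.19, Myb by 2.18, Icam2 by 2.02, Ly6c2 by 1.88, Lef1 by 1.54, Ccr7 by 1.27 and Ly6a by 0.58. It was lower at 3 weeks, by a difference of -3.76 for Klri2, -3.19 for Pdcd1lg2, -2.50 for Tnfsf8, -2.12 for Nrgn, -2.07 for Nrn1, -2.05 for Exoc7, -1.81 for Cnrip1, -1.67 for Tyrobp, -1.52 for Spry2, -1.51 for Stard7, -0.97 for Actn1, -0.57 for Lag3 and -0.50 for Ifi27l2a. Several of these rest on few UMIs at 3 weeks, and without the library block 4 genes in all were called.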

How the results depend on the processing

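The fall in the thinned Tcf7+ share and the lower odds of Tcf7 in Pdcd1+ cells kept the direction of their means under every alternative run. Leaving out 1 library moved these means from -5.30 to -4.20 percentage points (exact permutation p from 0.0286 to 0.0476) and from -0.83 to -0.65 (exact permutation p = 0.0156). Single 3-week libraries had a log2 odds ratio above 0 under some alternatives. These were library 4 without thinning (0.10), and library 2 without cells holding other markers (0.52) and without the deepest cells (0.11). The change of the odds ratio between the weeks, 0.10 and not called, was 0.46 without thinning (exact permutation p = 0.0179), -0.61 at 500 UMIs, -0.10 at 2000 UMIs (5686 and 8514 shallower cells of 1 and 3 weeks left out), -0.091 without cycling cells, and -0.054 to 0.26 with 1 library left out. The Slamf6 share difference ranged from 3.56 to 4.75 percentage points with 1 library left out. Counts of called genes moved more, and the cause was not tested. The counts below are in the order both weeks, 1 week, 3 weeks and difference between weeks, reported as 671, 844, 208 and 104. Without the replicate block (samples of 1 library share a block in the main design) they were 305, 281, 38 and 4. Without cells holding another cell type's marker they were 306, 398, 58 and 24. DESeq2 gave 437 and 310 for the first 2, and leaving out cycling cells gave 343 at 1 week and 55 for the difference. Matching on UMIs gave 414 for both weeks, 79 at 3 weeks and 45 for the difference, leaving out the 5% deepest cells 368, 84 and 45, and at least 2 Tcf7 UMIs 293, 68 and 19. With the gate set on thinned cells, which left 140 and 51 cells, they were 20, 34, 2 and 1. Leaving out 1 library gave 510 to 640, 439 to 607, 142 to 171 and 59 to 99. For Pdcd1+Tcf7+ cells over time, 2415 became 3645 without the filter, 1164 without cells holding other markers, 1263 without the deepest cells, 731 at 2 Tcf7 UMIs, 85 in thinned cells and 1778 to 2491 with 1 library left out. Against Pdcd1-Tcf7+ cells, alternatives chosen after seeing the data turned 552 at 1 week into 201 (DESeq2), 28 (no block), 137 (no cycling cells), 229 (no other markers), 247 (no deepest cells), 150 (2 Tcf7 UMIs), 6 (thinned) and 193 to 503 (1 library left out), and 9 at 3 weeks into 14, 4, 22, 2, 14, 1, 1 and 3 to 14 in that order, with 15 without the filter.

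Of 6547 values of named genes under alternatives, 5387 kept direction and call, 1058 lost the call, 53 gained one and 49 changed sign. The thinned gate left 140 and 51 Pdcd1+Tcf7+ cells of 1000 UMIs each at 1 and 3 weeks. Genes of low level there rest on few or no UMIs, and their large negative values give no direction. In thinned cells the signs changed over both weeks for Ccr7 (-1.56), Cd160 (-0.048), Cmah (-1.75), Dapl1 (-0.40), Ikzf2 (-0.72), Lef1 (-1.83), Slamf6 (-1.56) and Tyrobp (0.83). They changed at 1 week for Id2 (0.042), Ikzf2 (-0.66), Tnfrsf4 (-0.73) and Xcl1 (-0.036). At 3 weeks they changed for Ccr7 (-4.48), Cd160 (-0.0064), Cd244a (0.092), Cmah (-4.67), Ctnnd2 (0.037), Dapl1 (-2.94), Fasl (0.051), Foxp1 (-0.16), Gzmb (0.18), Itga1 (0.045), Lef1 (-4.39), Nr4a2 (0.15), Slamf6 (-5.08) and Tyrobp (0.58). For the difference between weeks they changed for Ccl3 (-0.36), Ccr7 (-5.83), Cd2 (-0.47), Ifi27l2a (0.11), Lef1 (-5.13) and Stard7 (1.36), and against Pdcd1-Tcf7+ cells for Cxcr6 (-0.22), Hmgb2 (-0.027), Il2rb (-0.043), Il7r (0.13) and Sh2d2a (-0.50) at 1 week and Ccl5 (-0.55) at 3 weeks. Matching changed Mki67 at 1 week (-0.23) and the differences of Ccl5 (-0.11) and Ccr7 (-1.38). Without the deepest cells Dapl1 became -1.15 over both weeks and -4.95 at 3 weeks, the Myb difference -0.71 and Txk over time -0.052. At 2 Tcf7 UMIs the Il10 difference was -4.37, and without cycling cells Pcna was 0.30 over time and, against Pdcd1-Tcf7+ cells at 1 week, -0.15, with Nkg7 at 0.21. The 172856 UMIs of the smallest 3-week sum limit genes of low level.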
